A study of Homo sapiens with 5 samples.

Results

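The genes described here are the G1 cyclins, cyclin-dependent kinases, E2F factors and RB-family genes of SAS, a long-established human cell line from a squamous carcinoma of the tongue. They are CCND1, CCNE1, CCNE2, CDK4, CDK6, CDK2, E2F1, E2F2, RB1 and RBL1, chosen by name, and all 10 were found among the 15187 genes that the study's count tables share. The libraries were 3 from cells with a short hairpin RNA against CCT2 (shCCT2 1, 2 and 3) and 2 from cells with a control hairpin (shCtrl 1 and 2). CCT2 encodes a subunit of CCT, the cytosolic chaperonin that folds actin, tubulin and other proteins. The authors deposited the counts in a pair of tables, called set A (shCCT2 1, shCCT2 2 and shCtrl 1) and set B (shCCT2 3 and shCtrl 2) here, and each shCCT2 library was compared with the shCtrl library of its own set. The labels give no hairpin sequence and no time after its delivery, and do not say whether separate cultures were used. The p-values therefore reflect the variation among these 5 libraries alone, and that variation may be technical.

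Progress through G1 is set by cyclin D bound to CDK4 or CDK6 and by cyclin E bound to CDK2. These kinases phosphorylate the pocket proteins RB and p107, encoded by RB1 and RBL1, which otherwise hold E2F factors in check, and released activator E2Fs such as E2F1 and E2F2 switch on genes of DNA synthesis, among them several of the cyclin, E2F and pocket protein genes themselves. In squamous carcinoma, cyclin D1 is known for amplification and high expression. Only mRNA was measured here, and in cultures taken whole a smaller share of cells in a phase and less RNA per cell cannot be told apart.

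The promoters of E2F1, E2F2 and RBL1 are shown because E2F1 was lower, and E2F2 and RBL1 higher, in each knockdown library than in its control, while each promoter carries the letters of an E2F site. The 250 bases before the start were taken from RefSeq (GRCh38.p14), each on the minus strand and written 5′ to 3′, with matches to TTTGGCGC, TTTCGCGC, TTTCCCGC or TTTGCCGC on either strand in capitals. They lie at chr20:33686386-33686635 for E2F1, chr1:23531234-23531483 for E2F2 and chr20:37095998-37096247 for RBL1.
E2F1: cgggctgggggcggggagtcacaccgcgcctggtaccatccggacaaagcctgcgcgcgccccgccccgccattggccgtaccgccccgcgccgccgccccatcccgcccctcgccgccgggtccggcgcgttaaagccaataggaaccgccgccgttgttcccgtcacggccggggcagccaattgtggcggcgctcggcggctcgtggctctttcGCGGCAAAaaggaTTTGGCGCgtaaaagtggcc
E2F2: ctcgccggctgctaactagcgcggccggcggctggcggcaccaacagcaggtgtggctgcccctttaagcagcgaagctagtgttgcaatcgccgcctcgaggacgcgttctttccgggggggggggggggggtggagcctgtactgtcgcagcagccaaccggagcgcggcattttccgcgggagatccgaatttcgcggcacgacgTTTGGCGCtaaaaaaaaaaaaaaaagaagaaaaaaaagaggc
RBL1: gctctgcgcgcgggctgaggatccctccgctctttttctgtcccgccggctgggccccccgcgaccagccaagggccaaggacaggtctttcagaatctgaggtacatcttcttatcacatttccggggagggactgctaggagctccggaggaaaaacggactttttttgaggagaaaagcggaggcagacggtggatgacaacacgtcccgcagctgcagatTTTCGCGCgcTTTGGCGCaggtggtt
The matches begin 33 and 20 bases before the start in E2F1, 42 bases before it in E2F2, and 26 and 16 bases before it in RBL1, and none overlaps another. Of the 7 listed genes with a window in the RefSeq table, 3 held a match, as did 10 of 21 E2F target genes with a window (a list given below), against 3.40% of the 27305 genes with a window. No match was found in the windows of CCNE1, CDK4, CDK6 and RB1, and the window listed for RB1 lies inside the gene. CCND1, CCNE2 and CDK2 had no entry. A match is a run of letters, not a measured binding site.

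The libraries held between 16913585 and 18156592 deposited counts. The smallest count of the 10 genes was 178, for E2F2 in shCtrl 1 (exact Poisson 95% interval of 152.8 to 206.2, which covers counting error only). CCT2 itself stood at 296.1, 272.4 and 260.2 normalised CPM (read counts scaled to library size, after TMM scaling) in shCCT2 1, 2 and 3, against 629.9 and 642.4 in shCtrl 1 and 2. The sets stood far apart: a chi-square per degree of freedom of gene counts ran from 20.25 to 43.59 among the libraries of set A and from 173.38 to 282.91 for every pair with a library of set B, the pair within set B included. All 8 squamous epithelial markers were detected in each library, and TP63, EPCAM and SFN were at 93.7 CPM or more. EPCAM and 4 of the others were lower throughout set B. EPCAM stood at 195.2 CPM in shCCT2 3 and 93.7 CPM in shCtrl 2, against 313.1 CPM or more in set A. CDH1 stood at 24.9 CPM in shCCT2 3 and 10.6 CPM in shCtrl 2, against 185.4 CPM or more in the libraries of set A. The keratin genes KRT5 and KRT14 stood at 298.0 and 98.0 CPM in shCCT2 3 and at 257.9 and 87.6 CPM in shCtrl 2, against 913.5 and 539.8 CPM or more in set A. KRT17 stood at 111.2 CPM in shCCT2 3 and 404.0 CPM in shCtrl 2, against 628.9 CPM or more in set A, whereas KRT6A was at 630.4 CPM in shCCT2 3 and at most 64.8 CPM in every other library. The joined markers of fibroblasts, leukocytes and endothelium summed to at most 11.8, 22.6 and 7.48 CPM in any library; the highest leukocyte sum was in shCCT2 2, and the endothelial gene KDR was at 0 in 3 libraries. Their part in the results below was not tested. The share of reads in windows from position 160 on, of 201 windows along transcripts, was 14.3%, 15.8% and 14.6% in shCCT2 1, 2 and 3 and 17.3% and 15.8% in shCtrl 1 and 2; its part was not tested either.

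Across the 10 genes the knockdown libraries showed a mixed pattern. CCND1, CCNE2, E2F2 and RBL1 were higher in each knockdown library than in the control of its set, and E2F1 was lower in each. CCNE1, CDK2, CDK4, CDK6 and RB1 kept within -0.20 and 0.25 of their controls on the log2 scale. Within that range, CDK4 was also higher in each knockdown library, and CCNE1 and CDK2 were also lower in each. With edgeR's quasi-likelihood test, none reached an adjusted p (Benjamini-Hochberg) under 0.05, where 0 of 13123 genes passed (0% called; 972 had an unadjusted p under 0.05, 7.41%). DESeq2's Wald test called 17 genes (0.13%), and none of the 10 was among them. The targeted gene CCT2 had a fitted change of -1.215 ± 0.182 (SE). DESeq2 called CCT2 (adjusted p = 3.81e-05), but edgeR did not (adjusted p = 0.542). At an unadjusted p under 0.05 in edgeR, 4 of the 10 were higher, against 2.83% of all genes tested, and 0 were lower, against 4.57%. The median fitted log2 change was 0.14 for the 10 genes and -0.02 for all genes tested. By library, the median of the 10 was 0.13, 0.16 and 0.17 in shCCT2 1, 2 and 3. The lowest log2 change, that of E2F1, was -0.53, -0.48 and -0.35 in shCCT2 1, 2 and 3. The highest was 0.83 for CCNE2 in shCCT2 1, 0.79 for CCND1 in shCCT2 2 and 3.10 for CCNE2 in shCCT2 3.

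**Figure D1:**
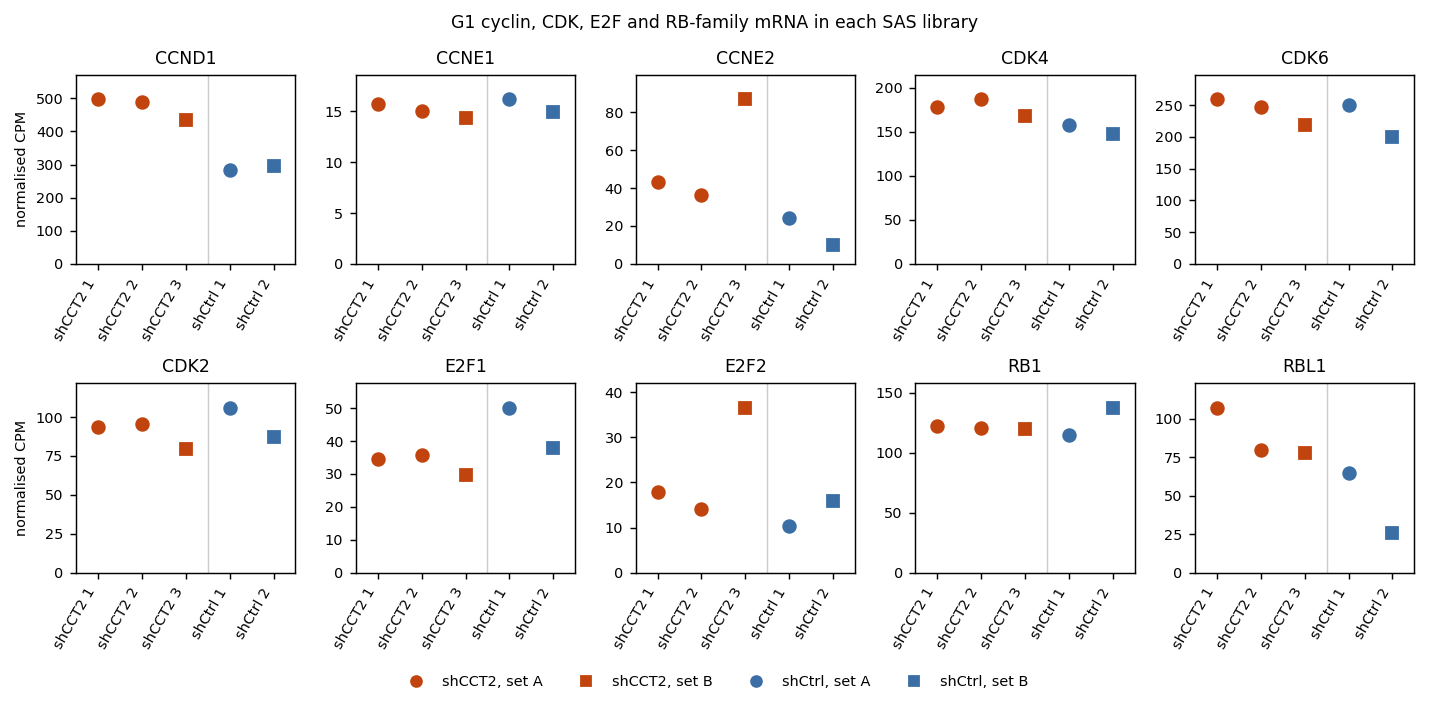
Normalised CPM (linear axis from 0, one scale per gene) of the 10 genes in the 3 shCCT2 libraries and the 2 shCtrl libraries, with circles for set A and squares for set B. CCND1 sits between 433.7 and 497.5 CPM in the shCCT2 libraries and at 284.2 and 295.4 CPM in the shCtrl libraries, while CCNE2 and RBL1 also differ between the 2 controls.

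Among CCND1, CCNE2, E2F2 and RBL1, the cyclin D1 gene CCND1, which carries mitogen signals to CDK4 and CDK6, had the most even difference. It stood at 497.5, 490.3 and 433.7 CPM in shCCT2 1, 2 and 3, against 284.2 and 295.4 CPM in shCtrl 1 and 2. The groups did not overlap, and the controls of the 2 sets lay within 1.04-fold of each other, whereas those of E2F2, CCNE2 and RBL1 differed by 1.55-fold, 2.47-fold and 2.50-fold. Mean levels were 473.8 ± 34.9 CPM in shCCT2 (SD, n = 3) and 289.8 ± 7.89 CPM in shCtrl (SD, n = 2). On the log2 scale shCCT2 1, 2 and 3 differed from their controls by 0.81, 0.79 and 0.55, and the fitted change was 0.69 ± 0.19 (SE; edgeR adjusted p = 0.542, unadjusted p = 0.00962). DESeq2 gave 0.70 ± 0.21 with an adjusted p of 0.176.

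The other D-type cyclins did not share one direction. CCND2 stood at 22.6, 22.0 and 16.7 CPM in shCCT2 1, 2 and 3, against 76.1 CPM in shCtrl 1 and 22.2 CPM in shCtrl 2. Its control was thus high in set A alone, and its log2 changes of -1.73, -1.77 and -0.40 differ by set accordingly (fitted -1.22 ± 0.32, SE; edgeR adjusted p = 0.542). CCND3 was at 99.4, 91.3 and 98.9 CPM in shCCT2 1, 2 and 3, against 79.2 and 64.3 CPM in shCtrl 1 and 2, with no overlap and a fitted change of 0.42 ± 0.19 (edgeR adjusted p = 0.542).

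The E-type cyclins, the partners of CDK2, parted from each other. CCNE1 was at 15.7, 15.0 and 14.4 CPM in shCCT2 1, 2 and 3, against 16.2 and 15.0 CPM in shCtrl 1 and 2. Its deposited counts, 252 to 282, had Poisson intervals that all overlap, as did the groups, and the fitted change was -0.07 ± 0.24 (SE; edgeR adjusted p = 0.914). CCNE2 was at 43.1, 36.2 and 86.9 CPM in shCCT2 1, 2 and 3, against 24.0 and 9.70 CPM in shCtrl 1 and 2. Every knockdown library was above both controls, with shCCT2 3 the highest and shCtrl 2 the lowest of the 5, so the set B pair holds both extremes. The log2 changes were 0.83, 0.58 and 3.10, and the fitted change was 1.68 ± 0.55 (edgeR adjusted p = 0.542). DESeq2 gave 1.68 ± 0.50 for CCNE2 (adjusted p = 0.149).

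The size of the CCNE2 difference depended on the set. From set B alone, with shCtrl 1 left out, it was 3.19. Without shCtrl 2 it was 0.72, and without shCCT2 3 it was 0.73. With the set as a term, leaving out either library of set B gives the change of set A alone. Here and below, these fits are therefore not separate checks. The change in set B minus that in set A was 2.44 ± 0.35 on the log2 scale (SE), with an adjusted p of 0.125 in edgeR, where 0 of 13123 genes passed for this difference (0%, with 2255 at an unadjusted p under 0.05, 17.2%), and of 0.00179 in DESeq2, which called 272 genes (2.07%). The alternatives gave adjusted p-values of 0.00179 to 0.373. CCNE2 was the only one of the 10 that DESeq2 called for this difference. The call was not particular to CCNE2, since DESeq2 also called 10 of the 24 E2F target genes described below. CCNE2 also had non-whole counts in 4 of the 5 libraries, values that plain counting of reads does not give.

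The kinase genes differed little. CDK4 stood at 177.8, 187.1 and 168.5 CPM in shCCT2 1, 2 and 3, against 157.4 and 147.3 CPM in shCtrl 1 and 2. The groups did not overlap, but the gap was small, at 0.18, 0.25 and 0.19 on the log2 scale in shCCT2 1, 2 and 3 (fitted change 0.21 ± 0.17, SE; edgeR adjusted p = 0.619). CDK6, the other partner of the D-type cyclins, was at 259.5, 248.0 and 219.0 CPM in shCCT2 1, 2 and 3, against 250.3 and 199.2 CPM in shCtrl 1 and 2. Its groups overlapped, and the fitted change was 0.07 ± 0.18 (edgeR adjusted p = 0.872). CDK2, the partner of cyclin E, was at 93.5, 95.4 and 79.5 CPM in shCCT2 1, 2 and 3, against 105.8 and 87.3 CPM in shCtrl 1 and 2. It was lower in each knockdown library than in the control of its set, by log2 changes of -0.18, -0.15 and -0.13, with overlap across sets (fitted -0.15 ± 0.17, edgeR adjusted p = 0.692).

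The activator E2F genes lay on opposite sides of their controls. E2F1 was at 34.6, 35.6 and 29.6 CPM in shCCT2 1, 2 and 3, against 50.1 and 37.9 CPM in shCtrl 1 and 2. It was the 1 gene of the 10 with every knockdown library below both controls. Its log2 changes were -0.53, -0.48 and -0.35, and the fitted change was -0.45 ± 0.19 (SE; edgeR adjusted p = 0.542, unadjusted p = 0.0516). E2F2 was at 17.9, 14.1 and 36.5 CPM in shCCT2 1, 2 and 3, against 10.3 and 15.9 CPM in shCtrl 1 and 2. Each knockdown library was above the control of its set, but shCCT2 2 was below shCtrl 2. The log2 changes were 0.77, 0.44 and 1.18, and the fitted change was 0.88 ± 0.27 (edgeR adjusted p = 0.542, DESeq2 adjusted p = 0.339). That fitted change was 0.64 without shCtrl 2 or shCCT2 3, 1.23 without shCtrl 1 and 0.31 with the replicate number as a block. Such a block sets shCCT2 2 of set A against shCtrl 2 of set B and leaves shCCT2 3 without a control. Its value therefore mixes the hairpin with the difference between sets.

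The pocket protein genes also differed from each other. RB1 was nearly constant in the knockdown libraries, at 122.6, 121.1 and 119.9 CPM in shCCT2 1, 2 and 3, against 115.1 and 137.5 CPM in shCtrl 1 and 2. All 3 values lay between those of the controls, and the fitted change of -0.04 ± 0.18 (SE; edgeR adjusted p = 0.936) was 0.08 without shCtrl 2 or shCCT2 3. RBL1 was at 107.1, 79.6 and 78.0 CPM in shCCT2 1, 2 and 3, against 64.6 and 25.8 CPM in shCtrl 1 and 2. No knockdown library overlapped a control. The knockdown libraries spanned 1.37-fold and the controls 2.50-fold. The log2 changes were 0.72, 0.30 and 1.58, with a fitted change of 0.97 ± 0.30 (edgeR adjusted p = 0.542, DESeq2 adjusted p = 0.295). That fitted change became 0.53 without shCtrl 2 or shCCT2 3 and 1.63 without shCtrl 1. The change in set B minus that in set A was 1.06 ± 0.37 (edgeR adjusted p = 0.249, DESeq2 adjusted p = 0.354). RBL1 had non-whole counts in 2 libraries.

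**Figure D2:**
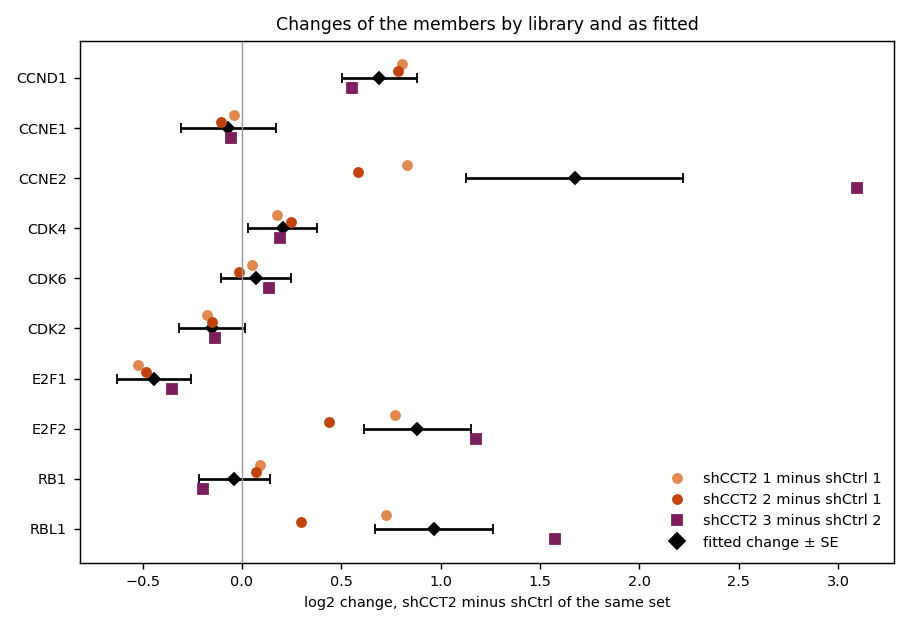
Log2 change (shCCT2 minus the shCtrl of the same set, x axis) of each of the 10 genes in shCCT2 1 and 2 (circles, set A) and shCCT2 3 (square, set B), with the fitted change ± SE from edgeR (black diamond). For CCND1 the 3 libraries lie between 0.55 and 0.81, whereas for CCNE2 they lie at 0.83, 0.58 and 3.10.

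Counted over the 10 genes, CCND1, CCNE2, CDK4 and RBL1 had all 3 knockdown libraries above both controls, 4 of 10 against 7.97% of all genes tested, and E2F1 alone had all 3 below, 1 of 10 against 8.28%. Within sets, 5 of 10 were higher in all 3 knockdown libraries, against 20.2% of all genes tested, and 3 of 10 were lower in all 3, against 21.4%. In the set B pair alone, CCNE2, E2F2 and RBL1 were more than 1 log2 unit higher, 3 of 10 against 8.37% of all genes tested. In set A no member was so in shCCT2 1 or 2, and of all 13123 genes tested only 131 were. Part of the difference between sets lay in the controls. CCNE2 and RBL1 were lower by more than 1 log2 unit in shCtrl 2 than in shCtrl 1 (-1.26 and -1.31), as were 12.4% of all genes tested, and 17.3% were higher by as much. Culture, passage and sequencing run cannot be told apart for the sets, since the labels give none of them.

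Ratios of related genes within a library do not depend on scaling between libraries. The ratio of CCNE2 to CCNE1 counts was 2.74, 2.41 and 6.05 in shCCT2 1, 2 and 3, against 1.48 and 0.65 in shCtrl 1 and 2, so every knockdown library was above both controls. The ratio of E2F2 to E2F1 was 0.52, 0.40 and 1.23 in shCCT2 1, 2 and 3, against 0.21 and 0.42 in shCtrl 1 and 2. That ratio was higher in each knockdown library than in the control of its set, by 1.33, 0.95 and 1.56 on the log2 scale, a narrower spread than that of CCNE2 to CCNE1 (0.89, 0.70 and 3.22). The ratio of RBL1 to RB1 was 0.87, 0.66 and 0.65 in shCCT2 1, 2 and 3, against 0.56 and 0.19 in shCtrl 1 and 2. The ratio of CDK4 to CDK6 was 0.69, 0.75 and 0.77 in shCCT2 1, 2 and 3, against 0.63 and 0.74 in shCtrl 1 and 2, with overlap. In a two-sided exact permutation test of the hairpin within sets, the 6 arrangements allow no p below 0.167, which CCNE2 to CCNE1, E2F2 to E2F1 and CCND1 to CDK4 reached. The other 2 of the 5 ratios tested gave 0.333, and the Benjamini-Hochberg adjusted values were 0.278 and 0.333.

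**Figure D3:**
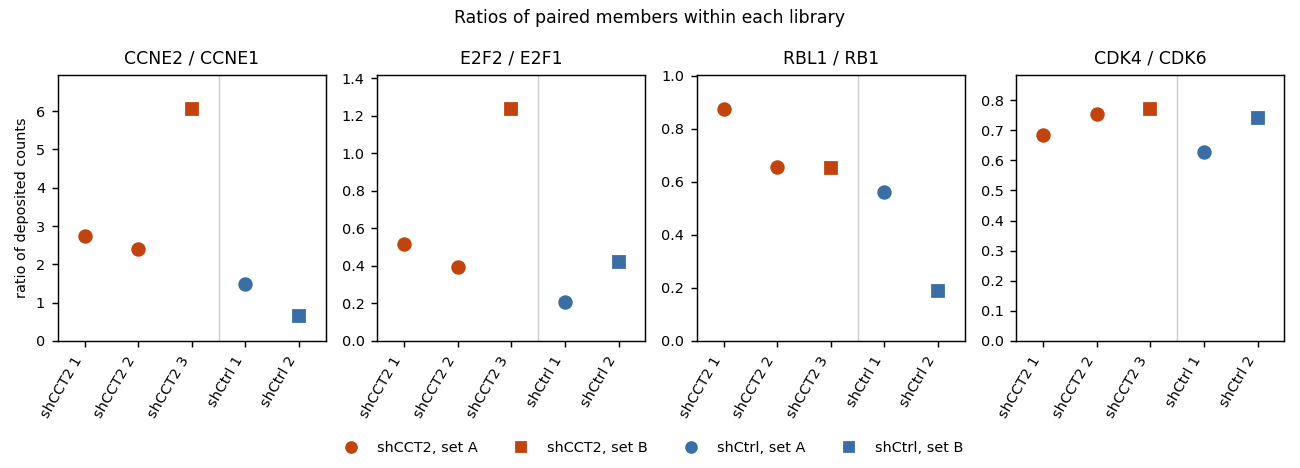
Ratio of deposited counts within each library (linear axis from 0) for 4 pairs of genes, with the 3 shCCT2 libraries left of the 2 shCtrl libraries, circles for set A and squares for set B. CCNE2 over CCNE1 is 2.41 or more in the shCCT2 libraries and 1.48 or less in the shCtrl libraries, while CDK4 over CDK6 stays between 0.63 and 0.77 in all 5.

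The genes that restrain or assist the 10 were taken from lists chosen by function, with earlier results of these data known. Of the 7 CDK inhibitor genes, the fitted value was higher for 2 and lower for 5, and 0 passed. Over all genes tested, 48.5% had a higher fitted value. CDKN1A, which encodes p21, was at 157.4, 127.4 and 122.7 CPM in shCCT2 1, 2 and 3, against 87.8 and 86.5 CPM in shCtrl 1 and 2, with no overlap and a fitted change of 0.62 ± 0.19 (SE; edgeR adjusted p = 0.542). CDKN2A, the gene of p16 and ARF, was at 106.9, 122.1 and 10.8 CPM in shCCT2 1, 2 and 3, against 139.1 and 36.8 CPM in shCtrl 1 and 2. It was low throughout set B, and its fitted change was -0.92 ± 0.36. CDKN1B, which encodes p27, had 0.15 ± 0.22, and CDKN2B, which encodes p15, had -0.59 ± 0.38. CDKN2C, CDKN2D and CDKN1C averaged under 10 CPM, with fitted changes of -0.09 ± 0.51, -0.54 ± 0.42 and -1.83 ± 0.71. Leaving out shCtrl 2 or shCCT2 3 turned the median of this list from -0.54 to 0.05. That median was -1.001 without shCtrl 1 and -0.34 without shCCT2 1. With the stricter filter it was -0.35, as it was with the replicate block, which mixes the sets.

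Of 9 further E2F, DP and pocket protein genes, the fitted value was higher for 6, against 48.5% of all genes tested. It was lower for 3, and 0 passed. E2F8, an atypical E2F that represses, was at 21.6, 21.6 and 40.6 CPM in shCCT2 1, 2 and 3, against 15.2 and 12.1 CPM in shCtrl 1 and 2, without overlap (fitted 1.02 ± 0.33, SE; edgeR adjusted p = 0.542). RBL2, which encodes the pocket protein p130 of quiescent cells, was at 57.2, 74.6 and 50.7 CPM in shCCT2 1, 2 and 3, against 87.9 and 111.0 CPM in shCtrl 1 and 2. RBL2 was thus below both controls in each knockdown library (fitted -0.73 ± 0.24), whereas its relative RBL1 was above both. E2F3, E2F4 and E2F6 had fitted changes of 0.50 ± 0.22, 0.62 ± 0.26 and 0.33 ± 0.23, and the atypical E2F7 had 0.75 ± 0.39, with 0.38, -0.23 and 1.65 in shCCT2 1, 2 and 3. The E2F partner genes TFDP1 and TFDP2 had 0.49 ± 0.28 and -0.39 ± 0.19. E2F5 was at 0.41, 1.43 and 11.1 CPM in shCCT2 1, 2 and 3, against 3.17 and 26.6 CPM in shCtrl 1 and 2, and had a fitted change of -1.52 ± 0.48.

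Among 13 genes that activate or turn over the G1 kinases, the fitted value was higher for 10, against 48.5% of all genes tested. It was lower for 3, with a list median of 0.13. That median was 0.50 with the replicate block, which mixes the sets, and 0.064 with no scaling. It was 0.077 and 0.078 without shCtrl 2 and without shCCT2 3. CDC25A, the phosphatase gene that activates CDK2, was at 121.4, 69.1 and 66.2 CPM in shCCT2 1, 2 and 3, against 60.6 and 11.1 CPM in shCtrl 1 and 2, or 0.996, 0.19 and 2.52 higher on the log2 scale than its controls (fitted 1.40 ± 0.48, SE; edgeR adjusted p = 0.542). SKP2 and CKS1B, whose products mark p27 for degradation, had 0.24 ± 0.18 and 0.18 ± 0.18, and CDK7, the CDK-activating kinase, had -0.24 ± 0.18. Next were 8 genes of the MuvB complex and its partners, which in the DREAM form include the products of RBL1 and RBL2. Of these, 7 had a higher fitted value, against 48.5% of all genes tested. MYBL1 had 1.22 ± 0.31, MYBL2 had 0.92 ± 0.34, FOXM1 had 0.59 ± 0.22 and LIN54 had 0.42 ± 0.23. The inputs to CCND1 were 10 listed genes, MYC, FOS, JUN, FOSL1, EGR1, ETS1, ETS2, CTNNB1, TCF7L2 and YAP1. Of these inputs, 7 had a higher fitted value, against 48.5% of all genes tested. None was at an unadjusted p under 0.05 in edgeR, against 7.41% of all genes tested. The AP-1 gene FOSL1 was at 245.1, 221.2 and 346.9 CPM in shCCT2 1, 2 and 3, against 201.7 and 86.4 CPM in shCtrl 1 and 2 (fitted 0.93 ± 0.41). CTNNB1, ETS2 and ETS1 had 0.41 ± 0.23, 0.35 ± 0.22 and 0.31 ± 0.19. None of these genes passed edgeR's test.

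Known E2F target genes of S-phase entry, a list also chosen with earlier results of these data known, were all higher by fitted value. That was 24 of 24, against 48.5% of all genes tested, with a median of 0.77. None passed in edgeR (lowest adjusted p = 0.542) or in DESeq2 (lowest adjusted p = 0.0963), and 7 of 24 had an unadjusted p under 0.05 in edgeR, all of them higher, against 2.83% of all genes tested. RRM2, a subunit of ribonucleotide reductase, was at 610.6, 482.3 and 530.9 CPM in shCCT2 1, 2 and 3, against 335.7 and 120.9 CPM in shCtrl 1 and 2 (fitted 1.29 ± 0.36, SE). TYMS, which encodes thymidylate synthase, had 1.13 ± 0.39, UHRF1, a reader of hemimethylated DNA, had 1.26 ± 0.45, and the replication helicase gene GINS1 had 0.92 ± 0.34. As with CCNE2 and RBL1, set B gave most of this: list medians were 0.35, 0.07 and 1.53 in shCCT2 1, 2 and 3, and 15 of the 24 were lower by more than 1 log2 unit in shCtrl 2 than in shCtrl 1, against the 12.4% of all genes tested given above. The list median was 0.21 without shCtrl 2 or shCCT2 3 and 1.57 without shCtrl 1. Library by library, 21, 17 and 24 of the 24 were higher in shCCT2 1, 2 and 3 than in the control of the same set, against 49.7%, 49.7% and 48.8% of all genes tested. This count was added after seeing the data, and its values for shCCT2 1 and 2 share the control shCtrl 1. E2F1, by contrast, was lower in all 3 knockdown libraries.

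**Figure D4:**
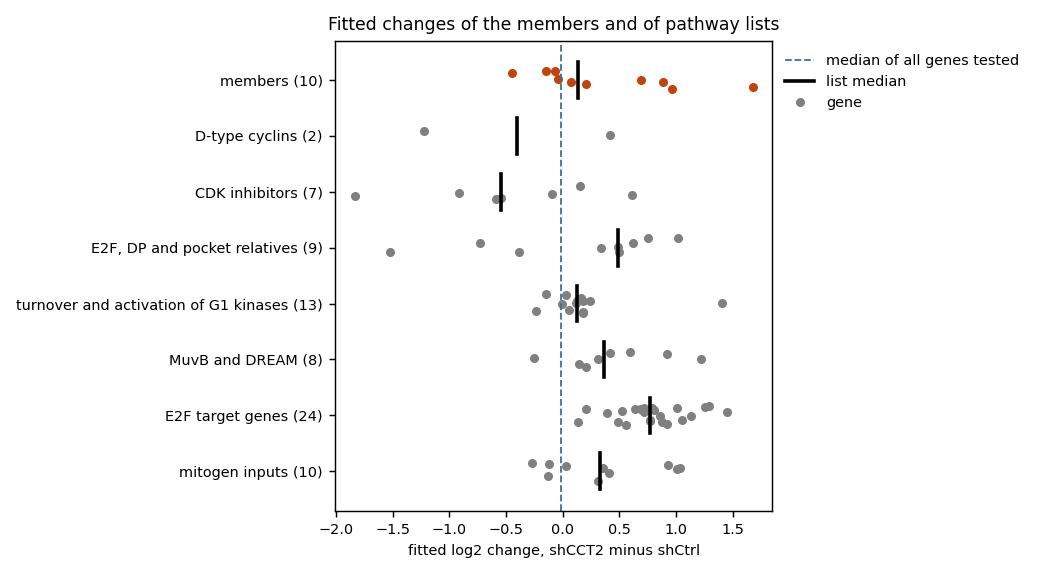
Fitted log2 change (shCCT2 minus shCtrl, x axis) of each gene in the 10-gene set and in 7 lists of related genes, numbers tested in brackets, with list medians as black bars and the median of all genes tested as a dashed line. The E2F target genes all lie above 0 around a median of 0.77, while the 10 genes spread from -0.45 to 1.68 around 0.14.

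The profiles most like those of CCND1, CCNE2 and RB1 were found as the smallest Euclidean distance over the 5 libraries in centred log2 CPM, among genes that averaged 5 CPM or more. For CCND1 they were CDKN1A (distance 0.22), H2AFV (0.32) and PNN (0.32), so the gene closest to cyclin D1 was the CDK inhibitor described above. For CCNE2 they were FAM111B (0.46), CD274 (0.64) and C17orf51 (0.67). FAM111B stood at 32.9, 26.7 and 52.8 CPM in shCCT2 1, 2 and 3, against 21.2 and 5.78 CPM in shCtrl 1 and 2, with the extremes in set B as for CCNE2. For RB1 they were CBWD5 (0.03), BNIP2 (0.04) and APIP (0.05), a group of genes that, like RB1, hardly varied.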

How the data were processed

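RNA-seq was done on 5 libraries of SAS cells. Per the labels' protocols, oligo(dT) beads captured the mRNA, and random hexamers primed the cDNA. A mouse build, mm10, and the tools HTSeq and STAR appear, with no role, in the submitters' processing notes. The gene identifiers are human. The build behind the counts and whether counting used strand are not given in the sources used here. It is therefore not known whether reads of overlapping genes were told apart. The authors deposited expected counts per gene in 2 tables, named read counts per the file headers, and a signal file of reads per window along transcripts for each library. Joining the tables by gene identifier left out 763 and 1032 genes listed in 1 table alone, and expected counts were rounded to whole numbers. All 10 genes passed edgeR's filter on low counts, as did 13123 of 15187. Quasi-likelihood fits were made in edgeR 4.0.16 under R 4.3.3, with TMM scaling and set beside hairpin as terms (2 residual degrees of freedom), and with their product for the difference between sets (1 residual degree of freedom). P-values were adjusted over all genes. The SE is the fitted change divided by the square root of F. Log2 changes of single libraries use CPM with 0.5 added. The fits were also run on simulated counts. Those were drawn with the same spread (dispersion) for every gene and no difference between sets, so they do not cover the set difference seen here. Alternatives were DESeq2 1.42.0, other scaling, filters, pseudocounts and terms, and each library left out. The genes and lists were chosen with earlier results of these data known. Named were all 10 genes, every D-type cyclin, CDK inhibitor and E2F-related gene at 1 CPM or more, and up to 4 genes of each other list by the smallest p.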

Additional observations from a re-analysis of the deposited data

How the results depend on the processing

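No gene of the 10 passed under any of the 13 alternatives for the knockdown effect, and RB1 was the only one whose fitted change turned round, to 0.083 with set A alone and, over the fits with 1 library left out, ran from -0.167 to 0.082. DESeq2 called 3 higher and 14 lower genes for the knockdown, and 145 higher and 127 lower genes for the difference between sets, where the stricter filter gave 6 and 5; edgeR called 0 to 2 lower genes with 1 library left out, the 2 without shCCT2 2. For the difference between sets, CCNE1 became -0.025 and CDK2 -0.013 with the stricter filter. The median of the 10 genes, 0.137, was 0.165 with no set term, 0.222 with the replicate block, 0.073 with no scaling, 0.108 with the stricter filter and 0.165 from the set B pair alone, and ran from 0.146 to 0.195 with 1 library left out. Genes of the 10 with all knockdown libraries below the controls numbered 1 to 3 with 1 library left out (3 without shCtrl 2, against 19.3% of all genes tested, 2 without shCtrl 1, against 32.4%, and 1 otherwise, against 10.2% to 19.6%). Those above numbered 4 to 6 (6 without shCtrl 2, against 18.8%, 5 without shCtrl 1, against 30.6%, 5 without shCCT2 2, against 13.9%, and 4 otherwise, against 10% and 19.3%); these and the set B pair were added after seeing the data. Deviations from group means correlated at 0.685 for replicate number 1 and -0.602 for number 2, which lie in the same and in different sets. With 2 controls, the deviations of one mirror those of the other, and shCCT2 1 and 2 share a set. These values therefore cannot show whether the replicate numbers pair the libraries. The replicate block sets shCCT2 2 against shCtrl 2 of the other set and leaves shCCT2 3 without a control. Values with that block therefore mix the hairpin with the set. The fits without shCtrl 2 and without shCCT2 3 take the change from set A, so they repeat the fit of set A alone. The cause of each shift was not tested.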

Other observations

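Among the inputs to CCND1, the immediate-early genes MYC and EGR1 varied widely between libraries, and were named after their values were seen. MYC was at 339.0, 3230 and 302.0 CPM in shCCT2 1, 2 and 3, against 415.2 and 362.0 CPM in shCtrl 1 and 2, so shCCT2 2 alone was high and its log2 change was 2.96, against -0.29 and -0.26 in shCCT2 1 and 3. EGR1 was at 69.0, 745.2 and 136.6 CPM in shCCT2 1, 2 and 3, against 369.3 and 26.4 CPM in shCtrl 1 and 2, with log2 changes of -2.41, 1.01 and 2.35, so it had no common direction. CCND1 in shCCT2 2, at 490.3 CPM, lay between its values of 497.5 CPM in shCCT2 1 and 433.7 CPM in shCCT2 3. Whether CCND1 depended on MYC or EGR1 was not tested.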
